A study of Saccharomyces cerevisiae with 8 samples.

Results

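The 4 libraries of Saccharomyces cerevisiae carrying ubc9-1, a mutant allele of the enzyme that attaches the protein modifier SUMO, are described here: 2 from cells given 100 nM rapamycin for 30 minutes and 2 from untreated cells. They are 4 of the 8 libraries of the series, were chosen by their labels alone, and all 7126 counted features entered. The other 4 libraries come from cells labelled WT, 2 given the same rapamycin treatment and 2 untreated, and they serve here to estimate the spread and as a comparison. All cells grew in the rich medium YPD, and RNA of 50 to 100 nt was selected from total RNA. An RNA within that range, such as a tRNA or one of the shorter small nucleolar RNAs (snoRNAs), could be counted near whole. A count of an mRNA, or of any other RNA well above the range, stands for fragments. The title of the series sets the question of how the rapamycin-sensitive kinase complex TORC1 acts through SUMO on RNA polymerase III. The labels do not say whether replicates were separate cultures, so the p-values below cover no more than the scatter among these libraries, and that scatter may be technical. They also do not give the background of either strain or the growth temperature.

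TORC1 is active when amino acids and ammonium are plentiful. It then keeps the making of ribosomes running, from rRNA transcription to subunit assembly, and holds the GATA transcription factors Gln3 and Gat1 out of the nucleus, so that genes for the use of poor nitrogen sources stay silent. In normal yeast rapamycin lifts that block and lowers the mRNAs of ribosome assembly factors, and it also lowers the activity of RNA polymerases I and III.

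The ubc9-1 libraries held 14304014 and 14712987 assigned counts with rapamycin and 20819464 and 18145824 without, and the 4 WT libraries held 16173246 to 21061460. Replicates differed by more than sampling noise in both ubc9-1 groups, and the chi-square over its degrees of freedom was 54.2 with rapamycin and 286 untreated. Untreated ubc9-1 replicate 1 stood apart, with 5S rRNA at 47.4% of its counts against 31.2 to 35.9% in the other 3 ubc9-1 libraries. Reads that fit several 5S genes were counted at each, so these are not shares of reads. The same library had a scaling factor (TMM) of 0.720 against 0.922 to 1.27. UBC9 itself had 16.8 and 19.6 scaled CPM (counts brought to a common library size by TMM, the scale of every level below) in rapamycin-treated ubc9-1 cells and 20.5 and 24.0 in untreated ubc9-1 cells, against 0.178 to 4.10 in the 4 WT libraries. A count of the transcript cannot show a mutant allele. The labels do not explain why UBC9 was lower in WT, and the cause was not tested. ADE2, an adenine synthesis gene, had 8.50 to 13.2 scaled CPM in the ubc9-1 libraries and 0 to 1.25 in the WT libraries. Its transcript level thus differed between the strains, and whether the gene itself differs was not tested.

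Rapamycin changed 91 of 6115 tested features in ubc9-1 cells, or 1.49%. Of these, 51 rose (0.834% of those tested) and 40 fell (0.654%), by the edgeR quasi-likelihood test on all 8 libraries with Benjamini-Hochberg adjusted p at most 0.05. An unadjusted p under 0.05 in that test was held by 592 of the 6115. The unadjusted counts given for gene lists below stand beside that share, and the calls given for them stand beside the 1.49%. The genes that rose were led by those for the uptake and breakdown of poor nitrogen sources: 25 of the 51 belong to the nitrogen lists used here. Both counts include the 4 ASP3 copies, which had identical counts and are 1 measurement. All 40 features that fell were mRNAs, and 24 of them belong to the ribosome assembly lists used here. The 51 also hold 4 C/D box snoRNAs. Rises spanned 1.38 to 5.66 on the log2 scale, and falls had sizes of 1.24 to 2.77. Without rapamycin-treated ubc9-1 replicate 2 the test called 21 features higher and 0 lower. Scaling by total counts gave 37 higher and 5 lower, and scaling by snoRNAs gave 29 higher and 179 lower, with the median of all features at -0.66. Of the 51 rises, 20 kept their call whichever of the 4 ubc9-1 libraries was left out, and of the 40 falls none did. The libraries of the treatments did not overlap in 39.4% of all features tested, and the rule that named the strongest calls required it. For a called gene it is thus a description of the values and not further support. Because these are bulk samples, fewer cells that make an RNA and less of it per cell cannot be told apart.

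**Figure D1:**
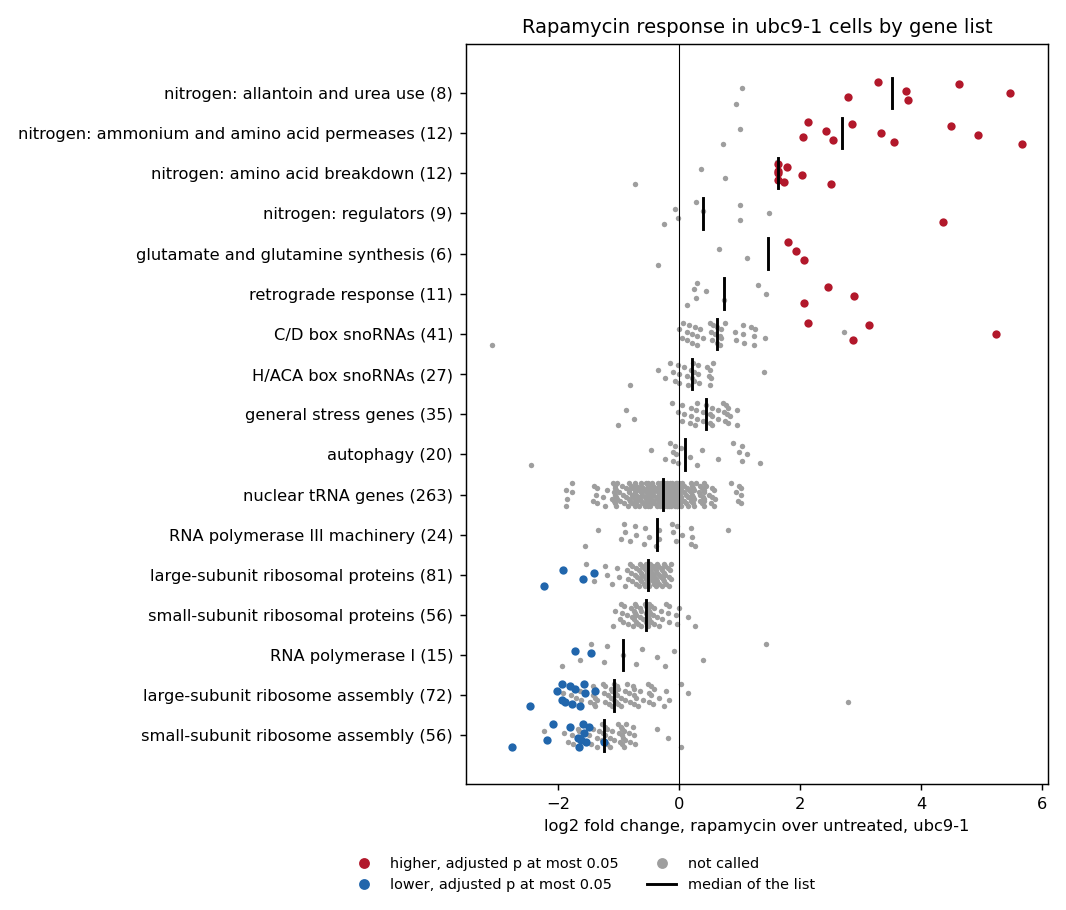
Log2 fold change of each measured member (points) of 17 gene lists in ubc9-1 cells, rapamycin over untreated, with the list median as a bar and the number of measured members in parentheses. Called members stand on the right for nitrogen lists, glutamate and glutamine synthesis, the retrograde response and 4 C/D box snoRNAs, and on the left for ribosome assembly, RNA polymerase I and 4 large-subunit ribosomal protein genes.

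Genes for allantoin and urea use rose most as a list: 6 of 8 measured members were called higher and none lower, with a median log2 fold change of 3.52 against -0.01 over all features. DAL5, the allantoate permease (YJR152W, chromosome X, 719666 to 721297), had 74.8 and 99.6 scaled CPM in rapamycin-treated cells, against 2.34 and 1.64 in untreated cells. Both treated libraries lay far above both untreated ones, a rise of 5.46 ± 0.59 (log2, SE; adjusted p = 2.0e-04). DUR3, which carries urea into the cell, had 68.8 and 110.3 scaled CPM with rapamycin and 3.94 and 3.37 without (log2 4.62 ± 0.39, adjusted p = 4.5e-05). DUR12, the urea amidolyase also written DUR1,2, had 361 and 422 scaled CPM with rapamycin and 30.3 and 26.9 without. Other enzymes of the same route rose too: DAL7, the malate synthase of allantoin breakdown, rose by 3.74 on the log2 scale, DAL2, the allantoicase, by 3.29, and DAL3, the ureidoglycolate lyase, by 2.79. In all 6 genes the treated and untreated libraries did not overlap, which was so for 39.4% of all features tested. The other 2 members were not called. DAL1, the allantoinase, had a log2 fold change of 1.04 (adjusted p = 0.317) and DAL4, the allantoin permease, one of 0.94 (adjusted p = 0.282).

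Of the 12 ammonium and amino acid permease genes, 10 rose, and the median of the list was 2.69. UGA4, the GABA permease (YDL210W, chromosome IV, 84270 to 85985), had 27.0 and 39.0 scaled CPM in rapamycin-treated cells, against 0.134 and 1.04 in untreated cells, where its counts were 2 and 24. Its log2 fold change of 5.66 ± 0.60 was the highest of the 51, and its size rests on those few untreated counts. MEP2, the ammonium permease that also senses ammonium, had 127 and 143 scaled CPM with rapamycin and 5.74 and 3.11 without (log2 4.94 ± 0.42, adjusted p = 4.5e-05). GAP1, the general amino acid permease, had 139 and 193 with rapamycin and 7.88 and 6.92 without (log2 4.49 ± 0.49, adjusted p = 2.0e-04). No treated library of these genes overlapped an untreated one, which the rule that named them required. OPT2, an oligopeptide transporter, rose by 3.55 on the log2 scale and DIP5, the glutamate and aspartate permease, by 3.33. CAN1, for arginine, PTR2, for di- and tripeptides, PUT4, for proline, AGP1, a broad amino acid permease, and MEP1, a second ammonium permease, rose by 2.05 to 2.85. MEP3, the third ammonium permease, had a log2 fold change of 0.72 (adjusted p = 0.418) and AGP3 one of 1.00 (adjusted p = 0.845). Without rapamycin-treated replicate 2, 6 of the 12 remained called.

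Enzymes that release nitrogen from amino acids followed, with 8 of 12 members called higher and a median of 1.63. UGA1, the GABA transaminase, had 47.6 and 46.9 scaled CPM with rapamycin, against 9.81 and 6.79 without (log2 2.51 ± 0.32, adjusted p = 8.5e-04). GDH2, the glutamate dehydrogenase that frees ammonium, had 84.7 and 110.5 with rapamycin and 25.7 and 22.3 without (log2 2.02 ± 0.36, adjusted p = 0.00963). Treated and untreated libraries did not overlap in either gene, which was so for 39.4% of all features tested. PUT1, the proline oxidase, rose by 1.78 and CAR1, the arginase, by 1.73. The 4 ASP3 genes, which encode cell-wall asparaginase, had identical counts because reads that fit all copies were counted at each, so their 4 calls at a log2 fold change of 1.63 are 1 measurement. The list median is that same value. PUT2, the enzyme after PUT1, was at 0.36 (adjusted p = 0.827), and the cytosolic asparaginase ASP1 at -0.73 (adjusted p = 0.586). These calls depended on the setting: 2 of the members were called after scaling by total counts, 1 after scaling by snoRNAs, and 1 without rapamycin-treated replicate 2.

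Genes that build glutamate and glutamine and the regulators themselves moved less as lists. GLN1, the glutamine synthetase, had 598 and 952 scaled CPM in rapamycin-treated cells, against 204 and 168 in untreated cells (log2 2.06 ± 0.37, adjusted p = 0.0102). GDH3 and GDH1, the NADP-dependent glutamate dehydrogenases, rose by 1.93 and 1.80, which makes 3 calls among 6 members with a median of 1.46. Of these 3, none was called without rapamycin-treated replicate 2 or without untreated replicate 2. Among 9 regulators of nitrogen genes only DAL80, a GATA repressor, was called, where edgeR called 1.49% of all features. The list median was 0.39, with its sign turned to -0.30 under snoRNA scaling. DAL80 had 108 and 137 counts in rapamycin-treated cells and 0 and 17 in untreated cells, a 19.4-fold difference in pooled scaled counts. Its call (edgeR adjusted p = 0.0114) was lost in DESeq2, at an adjusted p of 0.257, and without either rapamycin-treated library. The activators GLN3 and GAT1 had log2 fold changes of -0.08 (adjusted p = 0.981) and 1.00 (adjusted p = 0.623).

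Other called genes were of central carbon and amino acid metabolism. In the retrograde response, the set of genes that feeds carbon into glutamate when mitochondria are impaired, 3 of 11 members rose with a list median of 0.74. CIT2, the peroxisomal citrate synthase, had 63.8 and 108 scaled CPM with rapamycin and 14.1 and 9.08 without (log2 2.89 ± 0.41, adjusted p = 0.00177). DLD3, a lactate dehydrogenase, and PYC1, a pyruvate carboxylase, rose by 2.46 and 2.06. BAT2, the cytosolic branched-chain aminotransferase, had 172 and 199 scaled CPM with rapamycin and 23.9 and 32.5 without (log2 2.72 ± 0.35, adjusted p = 8.5e-04), while the mitochondrial BAT1 was at -0.77 (adjusted p = 0.343). CPS1, the vacuolar carboxypeptidase that frees amino acids from peptides, had 230 and 392 scaled CPM with rapamycin and 44.3 and 45.4 without (log2 2.79 ± 0.39, adjusted p = 0.00177). None of these genes had a treated library that overlapped an untreated one, which was so for 39.4% of all features tested. CPS1 was the only call among 12 vacuolar hydrolase genes, where edgeR called 1.49% of all features. The median of that list was 0.38, and -0.22 under snoRNA scaling. CHA1, which breaks down serine and threonine, rose by 2.89. It is 1 of 14 rises outside every list, and the next 4, chosen after their values were seen, were the alanine transaminase ALT1 (2.54), the mitochondrial dicarboxylate carrier DIC1 (2.51), the amidase homologue AMD2 (2.43) and BOP2 (2.16).

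**Figure D2:**
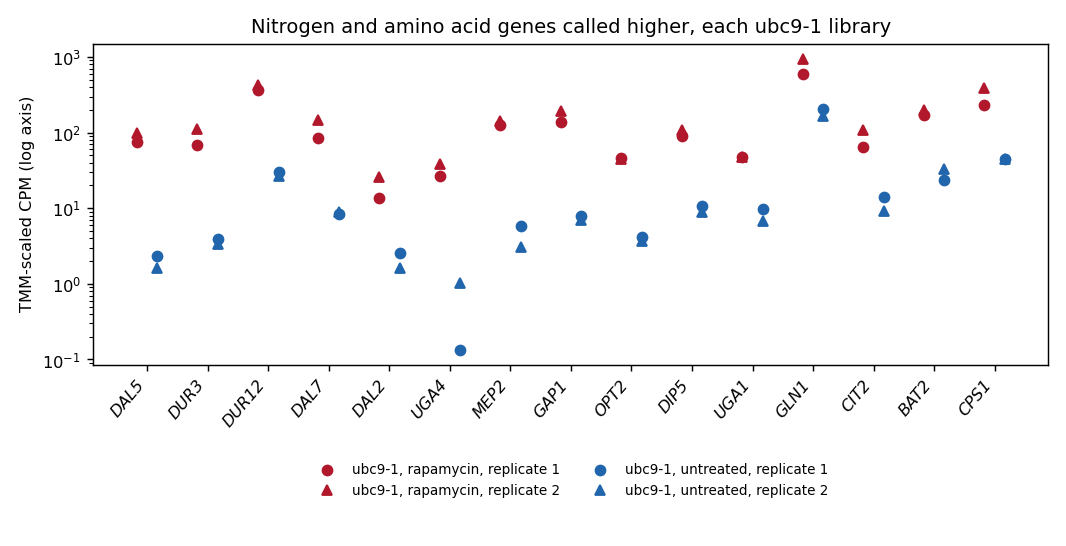
TMM-scaled CPM (log axis) of 15 nitrogen, amino acid and citrate synthase genes in each ubc9-1 library, rapamycin left and untreated right within each gene. For every gene both rapamycin-treated libraries lie above both untreated ones, and UGA4 has its lowest value, 0.134, in untreated replicate 1.

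The GATA factors bind GATAAG, and that sequence was looked for on both strands from 250 bases before to 50 bases after the start codon. It stood in 20 of the 47 promoters of called higher genes (42.6%, the 4 ASP3 copies included), in 4 of the 40 of called lower genes (10%) and in 849 of all 5686 tested (14.9%). UGA4 and DUR3, among the 5 highest rises, had none in this window, while DAL3 had 5 and DAL7 had 4. A stretch from 250 to 101 bases before the start codon is shown for 4 of the most raised genes whose motif lies there, read 5′ to 3′ on the gene's strand of the R64 genome. Capitals mark GATAAG or, on the other strand, CTTATC.
DAL5, chrX:719416-719565, plus strand: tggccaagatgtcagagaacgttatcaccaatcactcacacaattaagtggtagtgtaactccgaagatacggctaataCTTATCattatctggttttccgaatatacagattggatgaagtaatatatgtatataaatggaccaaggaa
MEP2, chrXIV:357203-357352, plus strand: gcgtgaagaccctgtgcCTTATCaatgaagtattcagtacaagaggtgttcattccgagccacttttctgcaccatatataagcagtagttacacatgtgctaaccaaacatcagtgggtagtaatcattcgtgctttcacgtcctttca
GAP1, chrXI:514813-514962, plus strand: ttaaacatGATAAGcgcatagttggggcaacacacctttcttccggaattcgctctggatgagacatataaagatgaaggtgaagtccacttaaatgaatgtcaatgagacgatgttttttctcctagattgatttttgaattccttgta
DAL80, chrXI:506648-506797, plus strand: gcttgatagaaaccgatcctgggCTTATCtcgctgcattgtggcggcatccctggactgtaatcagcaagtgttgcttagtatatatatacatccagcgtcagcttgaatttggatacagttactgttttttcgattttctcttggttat
The match is a description of letters, not of binding. Over the same window the stress response element CCCCT stood in 17.0% of the promoters of called higher genes and in 21.7% of all, and the Gcn4 motif TGACTC in 8.51% and 8.32%.

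On the lower side, mRNAs for making ribosomes fell. Of 56 factors that assemble the small subunit, 12 fell and none rose, and 55 of the 56 log2 fold changes were negative, with a median of -1.24. UTP9, a subunit of the small-subunit processome that also acts in rDNA transcription (YHR196W, chromosome VIII, 491931 to 493658), had 1.59 and 1.45 scaled CPM in rapamycin-treated cells, against 9.21 and 11.5 in untreated cells. It fell by 2.77 ± 0.40 on the log2 scale (adjusted p = 0.00236). MRD1, an RNA-binding protein needed to make 18S rRNA, had 6.07 and 3.82 with rapamycin and 18.6 and 26.4 without (log2 -2.19 ± 0.34, adjusted p = 0.00352). UTP9 and MRD1 were the only falls that kept their call after scaling by total counts. DHR2, an RNA helicase, had 2.12 and 1.38 scaled CPM with rapamycin and 6.41 and 8.43 without (log2 -2.09 ± 0.40, adjusted p = 0.0179). PWP2, a processome subunit, had 7.66 and 4.41 with rapamycin and 27.2 and 14.9 without (log2 -1.80 ± 0.38, adjusted p = 0.0308). The other 8, ENP1, DIP2, RRP5, UTP14, UTP20, TSR1, UTP10 and NAN1, had log2 fold changes of -1.67 to -1.24. In 50 of the 56 members the libraries did not overlap, against 39.4% of all features.

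Factors for the large subunit gave the same count, 12 falls and no rise among 72, with a median of -1.08 and 69 negative values. SYO1, the chaperone that brings Rpl5 and Rpl11 into the nucleus together, had 0.986 and 1.65 scaled CPM with rapamycin and 8.01 and 6.66 without (log2 -2.46 ± 0.42, adjusted p = 0.00836). PUF6, an RNA-binding protein of large-subunit precursors, had 5.16 and 3.62 with rapamycin and 14.4 and 21.0 without (log2 -2.02 ± 0.40, adjusted p = 0.0212). The libraries of the 2 treatments were apart in both genes, which the rule that named them required. RLP24, a placeholder for a ribosomal protein, had 4.63 and 1.84 scaled CPM with rapamycin and 9.35 and 15.4 without (log2 -1.95 ± 0.42, adjusted p = 0.0341). NOG2, an assembly GTPase, fell by 1.94 ± 0.34. Its gene overlaps SNR191, and reads in the overlap were not assigned. HAS1, a helicase used by both subunits, fell by 1.90 and SDA1, which acts late in assembly, by 1.80. Without rapamycin-treated replicate 2 neither list had a called member. After scaling by total counts 2 of the 56 and 0 of the 72 were called, with medians of -1.30 and -1.13, and after scaling by snoRNAs 32 and 37 were.

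RNA polymerase I, which transcribes the large rRNA, had 2 of 15 members called, both lower, against 1.49% of all features. The list median was -0.92. The 2 called members are the core subunits RPA190 (YOR341W, chromosome XV, 960987 to 965981) and RPA135. RPA135 had 15.6 and 11.98 scaled CPM with rapamycin, against 37.4 and 53.9 without (log2 -1.73 ± 0.31, adjusted p = 0.0114). RPA190 had 18.4 and 12.97 with rapamycin and 39.2 and 47.3 without (log2 -1.47 ± 0.32, adjusted p = 0.0335). Neither gene had overlapping groups, which was so for 39.4% of all features tested. NOP1, the methyltransferase of C/D box snoRNPs, fell by 1.49 ± 0.31 and was the 1 call among 16 snoRNP protein and assembly genes, whose median was -0.71. TRM82, of the tRNA methyltransferase that makes 7-methylguanosine, fell by 1.75 and was the 1 call among 44 tRNA processing genes. AAH1, the adenine deaminase, had 1.44 and 1.38 scaled CPM with rapamycin and 4.67 and 7.53 without (log2 -2.11 ± 0.44, adjusted p = 0.0273). It was the 1 call among 19 purine genes. With 1.49% of all features called by edgeR, 1 call in a list of 16, 19 or 44 does not set that list apart. Beyond the lists, the falls include MAE1, the malic enzyme, by 2.04, and URA7, a CTP synthase, by 2.01. KRE33, annotated as a ribosome biosynthesis protein but outside the assembly lists, was also called lower, with a log2 fold change of -1.76.

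Ribosomal protein mRNAs had medians nearer to 0 than assembly factor mRNAs. All 81 large-subunit genes had negative log2 fold changes with a median of -0.52, and 4 were called. RPL28 had 1.74 and 1.84 scaled CPM with rapamycin and 7.21 and 9.77 without (log2 -2.24 ± 0.36, adjusted p = 0.0045). RPL36B fell by 1.93, RPL16A by 1.59 and RPL18B by 1.42. Of these 4, RPL36B, RPL16A and RPL18B belong to pairs of duplicated genes, so that reads can be shared with the other copy and the split is uncertain. RPL28 overlaps YGL102C and RPL36B overlaps YPL250W-A, and reads in the overlaps were not assigned, so that their levels may rest on part of their reads. Of the 56 small-subunit genes 54 were negative, with a median of -0.55. EdgeR and DESeq2 each called 0 of the 56, with 11 at an unadjusted p under 0.05, where edgeR called 1.49% of all features. Without untreated replicate 2 the medians were -0.13 for the large and -0.22 for the small subunit. The libraries did not overlap in 38 of 81 and 34 of 56 genes, against 39.4% of all features.

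**Figure D3:**
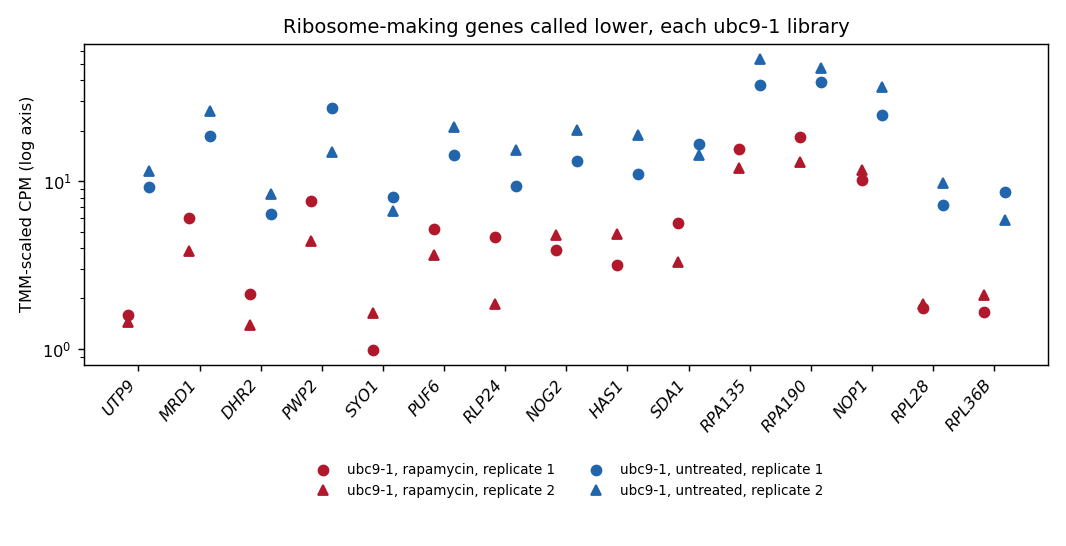
TMM-scaled CPM (log axis) of 15 ribosome-making genes in each ubc9-1 library, rapamycin left and untreated right within each gene. Both rapamycin-treated libraries lie below both untreated ones for every gene, with UTP9 at 1.59 and 1.45 against 9.21 and 11.5.

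A pair of sequences known upstream of ribosome assembly genes was common before the called lower genes. The PAC core GATGAG stood in 33 of their 40 promoters (82.5%), in 14 of the 47 of called higher genes (29.8%) and in 1129 of all 5686 (19.9%), over the same window and both strands. RRPE, searched as AAAATTTT, which reads the same on both strands, stood in 28 of the 40 (70%), in 2 of the 47 (4.26%) and in 520 of all (9.15%). PAC had 2 or more matches in 17 of the 40, and RPL28, RPL36B, RPL16A, MAE1 and INA1 had neither motif. The same stretch as above is shown for 4 of the strongest falls, picked because RRPE lies in it. Both motifs are in capitals on either strand (CTCATC is PAC on the other strand). RPL28, DHR2 and MAE1, also among the strongest falls, have neither motif in that stretch. The PAC matches of MRD1 and PUF6 lie outside it. The 6 PAC matches of SYO1 overlap by 1 base each.
UTP9, chrVIII:491681-491830, plus strand: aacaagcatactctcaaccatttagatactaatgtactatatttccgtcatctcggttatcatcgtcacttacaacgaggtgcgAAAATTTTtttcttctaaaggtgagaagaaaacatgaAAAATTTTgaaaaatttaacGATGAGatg
SYO1, chrIV:340235-340384, minus strand: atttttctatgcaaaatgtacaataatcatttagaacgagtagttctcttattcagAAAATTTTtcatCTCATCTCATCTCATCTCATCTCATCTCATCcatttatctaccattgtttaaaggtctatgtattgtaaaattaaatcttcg
MRD1, chrXVI:752020-752169, minus strand: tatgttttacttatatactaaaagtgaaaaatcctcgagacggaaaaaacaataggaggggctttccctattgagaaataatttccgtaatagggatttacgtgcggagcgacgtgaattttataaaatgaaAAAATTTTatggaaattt
PUF6, chrIV:1443504-1443653, minus strand: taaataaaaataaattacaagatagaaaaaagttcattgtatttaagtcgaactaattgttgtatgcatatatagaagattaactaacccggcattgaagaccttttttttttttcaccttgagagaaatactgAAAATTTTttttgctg
The shares describe the called genes and carry no test.

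Among small RNAs, 4 C/D box snoRNAs rose. C/D box snoRNAs guide the methylation of rRNA at sites they pair with, and all 4 that rose, SNR60, SNR58, SNR39B and SNR40, guide sites on rRNA. Of 41 measured C/D snoRNAs 39 had a positive log2 fold change, with a median of 0.62, and none was called lower. The median was 1.19 without untreated replicate 1, 0.24 without untreated replicate 2 and 0.15 under snoRNA scaling. The sequences of the 4 are shown from the R64 genome, 5′ to 3′ on their own strand. Capitals mark every TGATGA, the letters of box C, and every CTGA, the letters of box D. In SNR60, SNR58 and SNR40 a marked CTGA also lies well inside the RNA, so a marked CTGA need not be box D itself. SNR40 has no TGATGA.
SNR60, chrX:349130-349233, minus strand: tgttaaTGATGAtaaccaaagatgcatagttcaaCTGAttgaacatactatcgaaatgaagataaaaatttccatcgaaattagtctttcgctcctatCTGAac
SNR58, chrXV:136088-136183, minus strand: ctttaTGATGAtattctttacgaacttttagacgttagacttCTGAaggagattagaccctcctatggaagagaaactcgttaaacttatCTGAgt
SNR39B, chrVII:366374-366469, minus strand: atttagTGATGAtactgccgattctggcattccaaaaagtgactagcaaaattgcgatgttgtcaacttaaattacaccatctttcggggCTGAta
SNR40, chrXIV:89210-89306, plus strand: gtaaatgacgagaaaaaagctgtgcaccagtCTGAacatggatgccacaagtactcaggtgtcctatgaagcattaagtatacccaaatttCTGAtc
They are 96 to 104 bases long, where RNA of 50 to 100 nt was selected, so that SNR60 is longer than that range.

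SNR58 had 251 and 246 scaled CPM in rapamycin-treated ubc9-1 cells, against 19.6 and 37.1 in untreated ubc9-1 cells (log2 3.13 ± 0.42, adjusted p = 0.0013). SNR39B had 153 and 149.9 with rapamycin and 23.8 and 17.6 without (log2 2.87 ± 0.39, adjusted p = 0.00166). SNR40 had 10624 and 10216 with rapamycin and 2143 and 2637 without (log2 2.12 ± 0.37, adjusted p = 0.00876). The groups were apart in all 3, and the calls of SNR58 and SNR39B held without any 1 ubc9-1 library, while that of SNR40 was lost without either rapamycin-treated one. SNR60 had 50 and 66 counts with rapamycin and 0 and 4 without, a 39.0-fold difference in pooled scaled counts (adjusted p = 0.00253). Its gene overlaps YJL047C-A, so that part of its reads may be unassigned. SNR55, of the same class, had 69.6 and 8.17 scaled CPM with rapamycin and 7.28 and 4.54 without. Its treated value in replicate 1 was far above that in replicate 2, and it was not called (log2 2.73 ± 0.67, adjusted p = 0.0665). DESeq2 called 8 C/D snoRNAs higher and none lower, against 1.11% of all features higher.

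The snoRNAs as a class took 16.6 and 14.5% of assigned counts with rapamycin and 7.77 and 8.003% without. Reads that fit several genes were counted at each, so shares here are of counts and not of reads or RNA. These shares did not overlap, and the exact permutation test gave a two-sided p of 0.333, the smallest that 2 against 2 libraries allow. Shares of Ty, 5S rRNA, nuclear tRNA, mRNA and mitochondrial RNA overlapped between treatments. With Ty and rRNA taken out of the total, nuclear tRNA made up 24.3 and 20.9% with rapamycin and 43.0 and 26.6% without, which did not overlap and gave the same p of 0.333. The other class of modification guides, the H/ACA box snoRNAs, had 27 measured members with a median of 0.22, which was -0.11 without untreated replicate 2 and -0.32 under snoRNA scaling. EdgeR and DESeq2 each called 0 of them, with 1 at an unadjusted p under 0.05, where edgeR called 1.49% of all features. SNR67, the C/D snoRNA with the most counts among those above a log2 value of 1 and chosen after its values were seen, had a log2 fold change of 1.07 (adjusted p = 0.343).

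**Figure D4:**
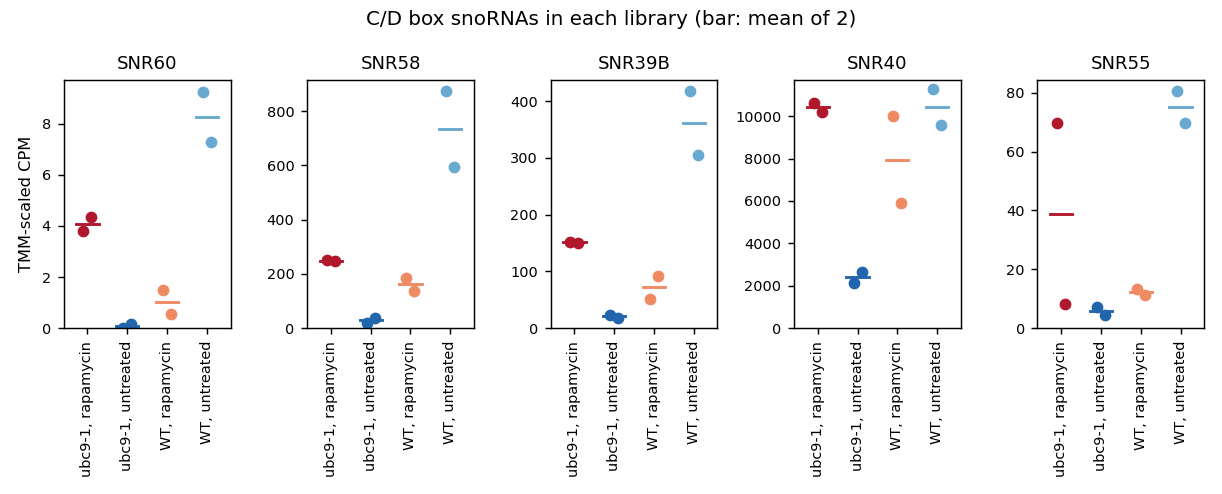
TMM-scaled CPM (linear axes from 0) of 5 C/D box snoRNAs in each library of the 4 groups, with bars at the mean of 2 libraries. In SNR60, SNR58, SNR39B and SNR40 both rapamycin-treated ubc9-1 libraries lie above both untreated ones, and in SNR60, SNR58 and SNR39B both rapamycin-treated WT libraries lie below both untreated ones.

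Products of RNA polymerase III gave no call in ubc9-1 cells. Of 263 measured nuclear tRNA genes, edgeR called 0, against 1.49% of all features. An unadjusted p under 0.05 was held by 26 of the 263, against 592 of all 6115 features, which is near the same share. DESeq2 called 3 of the tRNA genes lower, where it called 1.16% of all features lower. Scaling by snoRNAs gave 15 lower, with the median of all features at -0.66 there. Their median log2 fold change was -0.26, and it ranged from -0.58 to 0.20 as each ubc9-1 library was left out, so that its sign rested on single libraries. Because tRNA genes of 1 sequence share reads, their counts were also summed by anticodon. A read that fits several copies was counted at each, so a sum can hold the same read more than once. Of 41 families 0 were called (5 at an unadjusted p under 0.05), in a table where edgeR called 1.97% of features, and 32 had a negative value, with a median of -0.30. The lowest was tG(GCC), with 12454 and 11807 scaled CPM with rapamycin and 70665 and 14558 without (log2 -1.81 ± 0.53, adjusted p = 0.117). Untreated replicate 1, the library rich in 5S rRNA, alone lay far above the other 3. The initiator and elongator methionine family tM(CAU) had 89.9 and 73.1 with rapamycin and 148 and 84.7 without (log2 -0.51 ± 0.36, adjusted p = 0.739), and its groups differed less than the untreated replicates did.

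RDN5-1, the most counted 5S rRNA gene, had 194985 and 151381 scaled CPM with rapamycin and 329376 and 136384 without (log2 -0.43 ± 0.43, adjusted p = 0.880). The treated values lay between the untreated ones. SCR1, part of the signal recognition particle, RPR1, the RNase P RNA, and SNR6, the U6 spliceosomal RNA, had log2 fold changes of 0.05, -0.13 and -0.30 and adjusted p-values of 0.985, 0.960 and 0.935. Among 24 genes for RNA polymerase III, its factors and its repressor Maf1, edgeR and DESeq2 each called 0. Of these genes 2 had an unadjusted p under 0.05, and the median was -0.36. EdgeR called 1.49% of all features, so a list of 24 can have no call without differing from them.

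Set beside WT, most calls of ubc9-1 cells went the same way. In WT cells the same test called 536 features higher (8.77%) and 712 lower (11.6%). Of the 51 rises in ubc9-1, 46 also rose in WT, with the 4 ASP3 copies in both counts. That is 90.2% of the ubc9-1 rises and 8.58% of the WT rises. All 40 falls also fell in WT, which is 5.62% of the WT falls. Values in ubc9-1 had the same sign as in WT and were nearer to 0 for 40 of the 51 and 35 of the 40. Of all 6115 features tested, 4387 had a smaller absolute value in ubc9-1 than in WT, whatever the sign, so that this order was common outside the calls too. Medians were 2.43 in ubc9-1 and 3.14 in WT for the rises, and -1.72 in ubc9-1 and -2.75 in WT for the falls. Over the 536 WT rises the median was 0.42 in ubc9-1 cells and 1.43 in WT cells, and over the 712 WT falls it was -0.68 in ubc9-1 cells and -1.92 in WT cells. A median over features called in a strain is raised in that strain by the choice itself. Tested feature by feature, the difference between the strains' responses was called for 3 of the 51 and 0 of the 40.

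Several lists also had medians nearer to 0 in ubc9-1 than in WT. Small-subunit assembly had a median of -1.24 in ubc9-1 and -2.55 in WT, where 54 of 56 fell. Large-subunit assembly had -1.08 in ubc9-1 and -2.57 in WT, where 64 of 72 fell. Allantoin and urea use had 3.52 in ubc9-1 and 4.83 in WT, where all 8 rose. Nuclear tRNA genes had -0.26 in ubc9-1 and -1.49 in WT, where 148 of 263 fell, and anticodon families had -0.30 in ubc9-1 and -1.75 in WT, where 27 of 41 fell and 11% of that table did. Other lists did not follow this order: general stress genes had 0.45 in ubc9-1 and 0.39 in WT, and the signs were opposite for C/D box snoRNAs, at 0.62 in ubc9-1 and -0.28 in WT, for purine genes, at -0.40 in ubc9-1 and 0.19 in WT, and for histidine and lysine synthesis, at -0.22 in ubc9-1 and 0.54 in WT. In the test of the difference, 39 of the 41 families had the more positive value in ubc9-1 and 21 had an unadjusted p under 0.05, and edgeR called 0, against 0.305% of that table. A p above the threshold does not show equal responses.

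The difference itself was called for 10 features of 6115 (0.164%): 8 with the more positive response in ubc9-1 (0.131%) and 2 with the more negative (0.0327%). The 3 strongest calls were snoRNAs that rose in ubc9-1 and fell in WT. SNR58 had 251 and 246 scaled CPM in treated and 19.6 and 37.1 in untreated ubc9-1 cells, against 187 and 137 in treated and 873 and 593 in untreated WT cells. Its untreated level was thus far lower in ubc9-1 than in WT, while the treated levels lay near each other, and the difference of responses was 5.31 ± 0.58 on the log2 scale (adjusted p = 9.2e-04). SNR39B showed the same order of the 4 groups, with a difference of 5.19 ± 0.55 (adjusted p = 9.2e-04), and so did SNR60, with one of 8.24 ± 0.97 (adjusted p = 0.00151). Under DESeq2, under each scaling and without any 1 library all 3 kept this call. SNR40 rose in ubc9-1 and was at -0.39 in WT, and the test of its difference gave 2.52 ± 0.51 at an adjusted p of 0.0691.

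At the other end stood DAL4 and ADE17. DAL4 had 7.66 and 6.39 scaled CPM in treated and 4.14 and 3.200 in untreated ubc9-1 cells, against 16.9 and 18.0 in treated and 1.51 and 1.16 in untreated WT cells. Its rise was called in WT and not in ubc9-1, and the difference was -2.77 ± 0.49 (adjusted p = 0.0445). ADE17, which makes the purine precursor IMP, had 8.80 and 7.51 in treated and 12.1 and 9.34 in untreated ubc9-1 cells, against 18.2 and 30.4 in treated and 5.87 and 3.88 in untreated WT cells (difference -2.73 ± 0.49, adjusted p = 0.0475). The part that the difference in ADE2 level between the strains has in these values was not tested. DAL4 and ADE17 lost their calls without any 1 of the 4 ubc9-1 libraries.

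**Figure D5:**
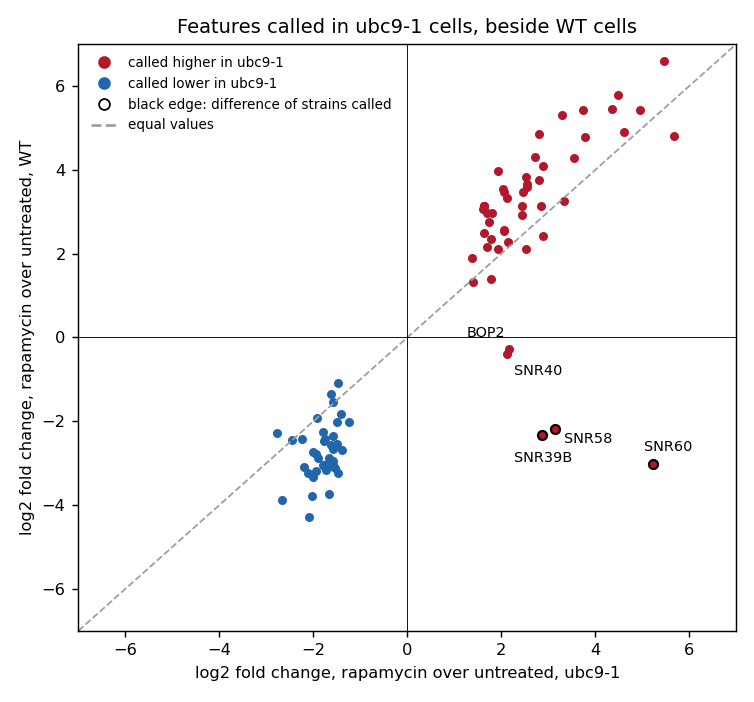
Log2 fold change of rapamycin over untreated in ubc9-1 cells (x axis) and in WT cells (y axis) for the 91 features called in ubc9-1, with equal values on the dashed line. The named points are SNR60, SNR58 and SNR39B, whose difference between strains was called (black edge), and SNR40 and BOP2, whose was not.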

How the data were processed

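The authors deposited raw fragment counts per gene. Alignment with TopHat2 2.0.13 and counting with featureCounts 1.4.6-p3 on the R64 build are given by the submitters' processing notes. Per the file headers, featureCounts took paired reads at gene level, counted multi-mapping reads at each place, used no strand and left reads in overlapping genes unassigned. Of 7126 features, 6603 were above 0 in a ubc9-1 library and 1420 overlap another feature. Among the calls in ubc9-1, 5 of the 51 rises and 7 of the 40 falls overlap another feature. Symbols and sequences came from the R64 annotation and genome. The deposited normalized values were not used here.

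The counts of all 8 libraries entered 1 edgeR 4.0.16 model (R 4.3.3) with a term for each group and TMM scaling, after filterByExpr at a minimum count of 10 had kept 6115 features. Contrasts were tested by quasi-likelihood F tests, with Benjamini-Hochberg adjustment over all features and calls at 0.05. The approximate standard error divides the size of the log2 value by the root of F. The test was checked on simulated counts. Nuclear tRNA genes were also summed by anticodon, which left 5893 features tested. Library totals of 14304014 to 21061460 counts set the precision: a 0 stands for fewer than 3 counts, for counting error only. A reported pooled fold is a ratio of summed scaled counts.

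The named genes are the 15 highest and 15 lowest called features whose mean count reached 50 and whose groups do not overlap. To these were added up to 4 called members per list in each direction, or else the 2 most counted. Up to 5 interaction calls in each direction and fixed RNAs were named too. Any other name was picked with its values in view. The members and the lists were chosen with earlier results of these data known. Alternatives were other scalings, no filter, DESeq2 1.42.0, only the strain's own libraries, a replicate block and leaving out each library.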

Additional observations from a re-analysis of the deposited data

Results flagged for a closer look

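Each of these 10 features was singled out because the test of the difference itself, the response in ubc9-1 minus the response in WT, was called (edgeR, adjusted p at most 0.05). No explanation was tested. The snoRNAs SNR60, SNR58 and SNR39B had differences of 8.24, 5.31 and 5.19 on the log2 scale. SNR55, also a C/D box snoRNA, had one of 5.33 ± 0.93 (adjusted p = 0.0445), with 69.6 and 8.17 scaled CPM in treated and 7.28 and 4.54 in untreated ubc9-1 cells, against 13.5 and 11.3 in treated and 80.6 and 69.8 in untreated WT cells. Without treated ubc9-1 replicate 1 the difference was 3.08 (adjusted p = 0.0635). The call was also lost without any 1 of 6 other libraries, at adjusted p-values of 0.0556 to 0.183, and it was kept without treated ubc9-1 replicate 2.

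EFB1, the elongation factor gene whose intron holds SNR18, had 87.3 and 88.2 scaled CPM in treated and 72.8 and 94.2 in untreated ubc9-1 cells, against 91.7 and 80.0 in treated and 1749 and 1096 in untreated WT cells (difference 4.12 ± 0.52, adjusted p = 0.00241). The untreated WT libraries alone were high. Reads in the overlap with SNR18 were not assigned. The tRNA gene tS(AGA)D3 had 21.0 and 18.4 in treated and 17.9 and 8.74 in untreated ubc9-1 cells, against 12.6 and 6.84 in treated and 100.2 and 46.9 in untreated WT cells (difference 3.49 ± 0.61, adjusted p = 0.0445). It shares reads with its copies.

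A pair of ribosome assembly factors fell in WT and were not called in ubc9-1. NOP8, of the large subunit, had 6.37 and 3.89 in treated and 9.95 and 9.90 in untreated ubc9-1 cells, against 1.03 and 1.35 in treated and 14.8 and 18.3 in untreated WT cells (difference 2.82 ± 0.50, adjusted p = 0.0445). LTV1, of the small subunit, had 6.37 and 5.07 in treated and 12.4 and 14.5 in untreated ubc9-1 cells, against 1.68 and 2.29 in treated and 26.3 and 33.8 in untreated WT cells (difference 2.68 ± 0.44, adjusted p = 0.0404). In the other direction stood DAL4 at -2.77 and ADE17 at -2.73. SNR60, SNR58, SNR39B and EFB1 kept their calls whichever 1 of the 8 libraries was left out, and each of the other 6 lost its call without rapamycin-treated ubc9-1 replicate 1 and without several others.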

How the results depend on the processing

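In ubc9-1 cells the numbers higher and lower, 51 and 40, were 94 and 138 with a replicate block and 29 and 179 with snoRNA scaling. The number lower was 71 in DESeq2, 73 with no filter and 5 by total counts. Leaving out 1 library gave 21 to 56 higher and 0 to 53 lower. Calls of the difference between strains, 8 and 2, were 103 and 23 in DESeq2, 44 and 8 with no filter, 250 and 96 with the block, and 5 and 0 with RLE factors and by total counts. The lower ones were 17 with snoRNA scaling, and leaving out 1 library gave 4 to 11 and 0 to 4. In WT 829 were higher with the block, 349 and 374 were higher and lower with snoRNA scaling, and 265 were lower by total counts, with 236 to 588 and 323 to 767 when 1 library was left out.

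Small- and large-subunit assembly, 12 falls each, had 19 and 21 in DESeq2, 22 and 21 with no filter, 27 and 32 with the block, 32 and 37 with snoRNA scaling, 2 and 0 by total counts, and 0 to 16 and 0 to 14 without 1 library. Amino acid breakdown had 1 rise with snoRNA scaling, 2 by total counts and 1 to 9 without 1 library, and permeases 6 to 10. C/D snoRNAs had 8 rises in DESeq2, 12 with the block and 7 by total counts. Nuclear tRNA genes had 1 rise with the block, and falls of 3 in DESeq2, with no filter and by total counts, 15 with the block and with snoRNA scaling, and 0 to 3 without 1 library. Anticodon families had 1 fall with no filter and by total counts, 3 with the block, 6 with snoRNA scaling and 0 to 1 without 1 library. The snRNA share difference, treated minus untreated, was 0.0053 percentage points and turned to -0.067 without Ty and rRNA, and spanned -0.0925 to 0.10 without 1 library. The same ranges were -1.88 to 7.24 for Ty, -0.60 to 0.52 for mitochondrial RNA, -2.83 to 2.73 for mRNA and -0.26 to 0.22 for other RNA. Over 250 bases alone, all promoters held GATAAG in 12.7%, CCCCT in 19.0%, TGACTC in 6.52% and GATGAG in 16.5%.

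The labels do not pair the replicate numbers, and differences between replicates 1 and 2 correlated between treatments at 0.240 in ubc9-1 (across 6115 features, which are not independent), so the block is only an alternative. The allantoin list kept its 6 calls with the block, in DESeq2 and in each scaling. The causes were not tested. With 2 libraries a group, depth limits the lowest features, and the spread of replicates limits the rest.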

Other observations

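Many pathways with members measured here gave no call in ubc9-1 cells. EdgeR called 1.49% of all 6115 features, and DESeq2 called 1.11% higher and 1.16% lower. At those shares a list this short can have no call without differing from all features. The absence of calls therefore sets none of these lists apart. An unadjusted p under 0.05 was held by 592 of all 6115. Among 35 general stress genes, 28 heat shock chaperones, 19 trehalose and glycogen genes and 20 autophagy genes, edgeR and DESeq2 each called 0, with 7, 2, 3 and 3 members at an unadjusted p under 0.05. Their median log2 fold changes were 0.45, -0.11, 0.49 and 0.10, and under snoRNA scaling -0.18, -0.67, -0.08 and -0.42. TPS1, the trehalose phosphate synthase, had 108 and 118 scaled CPM with rapamycin and 62.0 and 68.2 without; these groups did not overlap, and the difference did not pass (log2 0.80 ± 0.31, adjusted p = 0.362). HSP12, a membrane stress protein, had 135 and 145 with rapamycin and 138 and 147 without. ATG13, a regulatory subunit of the kinase that starts autophagy, had 14.3 and 8.82 with rapamycin and 22.6 and 9.60 without. In these last 2 genes the treatments overlapped.

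Genes for growth on glucose also gave no call: edgeR and DESeq2 called 0 of 17 glycolysis genes and 0 of 16 hexose transporter genes, with 0 at an unadjusted p under 0.05 in both, and medians of -0.02 and 0.09. TDH3, a glyceraldehyde phosphate dehydrogenase, had 1599 and 1489 scaled CPM with rapamycin and 1417 and 1374 without (log2 0.15, adjusted p = 0.949). The proteasome list had a median of 0.11 over 32 genes and the TORC1 list 0.03 over 29. EdgeR and DESeq2 again called 0 in both, with 0 and 2 at an unadjusted p under 0.05. With 1.49% of all features called by edgeR, these lists too can have no call without standing apart. Of 9 targets of the SPS amino acid sensor, 3 rose, namely DIP5, PTR2 and AGP1, which the permease list also holds, while the tryptophan and tyrosine permease TAT1 was at -0.77 (adjusted p = 0.354). The acid phosphatase PHO3 had 16.0 and 12.4 scaled CPM with rapamycin and 25.2 and 69.2 without (log2 -1.74 ± 0.42, adjusted p = 0.060), the untreated libraries differing most. Of the mating genes, STE2, of a cells, had 21.2 and 21.4 with rapamycin and 19.0 and 28.7 without, and STE3, of alpha cells, had 0.401 to 2.35 in the 4 ubc9-1 libraries.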
